A study of Nasonia vitripennis with 140 samples.

Results

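The comparison described here is between the heads of adult males of the jewel wasp Nasonia vitripennis that carry the dsx-RNAi label and the heads of males injected with a control dsRNA against GFP, the jellyfish protein gene. It rests on 10 of the 140 RNA-seq libraries of the study, 5 of each group. The libraries were taken by their labels, while the comparison itself was chosen with earlier results of these data known. All wasps were of the lab strain AsymCX. Pupae of 8 days after oviposition received 4 µg/µl of dsx or GFP dsRNA, and adults were frozen 1 day after they emerged, 7 or 8 days past the injection, and cut into head, thorax and abdomen. The labels speak of 7 adults without saying whether that is the number behind each library, and nothing says that the 5 libraries of a group came from separate rearings, so p-values measure the spread between these libraries, which may be partly technical. That spread was estimated jointly over 20 adult head libraries, so p-values of the male comparison also draw on the female heads. The heads of 5 GFP-injected females serve as the reference for the female level, and 5 dsx-labelled female heads enter the fit and the test of the difference between the sexes.

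Wasps are haplodiploid: unfertilised eggs become haploid males and fertilised eggs become diploid females. In females of this species the splicing factor transformer (Tra) is active and directs doublesex (Dsx), a transcription factor with a DM domain, to its female splice form, while in males Dsx takes a male form by default. The 2 forms share their DNA-binding domain and act on traits that differ between the sexes, in this genus among them the size of the male wing. RNA interference degrades the messenger RNA that matches an injected double-stranded RNA. In a male the expected target is therefore the male form, and the gene counts used here sum over all forms.

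Each head library held between 67106414 and 96616030 counts over 15471 genes, of which 12136 passed the filter on low counts and were tested. Levels are CPM, the counts of a gene relative to the TMM-adjusted size of its library, and per-library values are listed in the order of replicates 1 to 5. Before TMM scaling, heads had the retinal opsin gene Lop1 at 3310 to 4040 CPM in the dsx-labelled males, 4020 to 6830 CPM in the GFP males and 3870 to 5150 CPM in the GFP females. Lop1 was at 1.52 CPM or below in every male thorax and abdomen of these treatments, so the tissue label stands. Tra separated the labels of sex, at 31.7 to 66.2 CPM in dsx-labelled males and 36.3 to 61.5 CPM in GFP males, against 324 to 472 CPM in GFP females. The cytochrome P450 gene CYP9AG7 reached 4772 to 13090 CPM in the dsx-labelled males and 5541 to 14630 CPM in the GFP males, against at most 0.165 CPM in the GFP females. It was named after its values were seen, so it is no check of the labels. Along the leading component of variation within groups, which held 37.8% of that variation, 3 male heads stood apart from the other 7: replicate 1 of the dsx-labelled males at -0.583, and replicates 1 and 2 of the GFP males at -0.414 and -0.396, where the others lay between 0.108 and 0.301. These 3 libraries were low in CPR48, a gene of the chitin-binding cuticle protein family, and in the defensin gene Def1-1. CPR48 stood at 362, 4413, 5209, 5528 and 4307 CPM in the dsx-labelled males and at 558, 274.5, 4435, 9130 and 6872 CPM in the GFP males. Summed P450 genes were high in the same 3 libraries, at 20300 CPM against 8930 to 9830 CPM among the dsx-labelled males and at 25800 and 23800 CPM against 10100 to 14000 CPM among the GFP males. Their neuronal genes Para, Slo and Syt1 summed to 1180 CPM in the dsx-labelled library and 1100 and 1260 CPM in the GFP libraries, against 1800 to 2100 and 1880 to 2050 CPM in the other libraries of each group. The main counts, and the named genes whose call is lost without these 3 libraries, are given both ways.

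**Figure D1:**
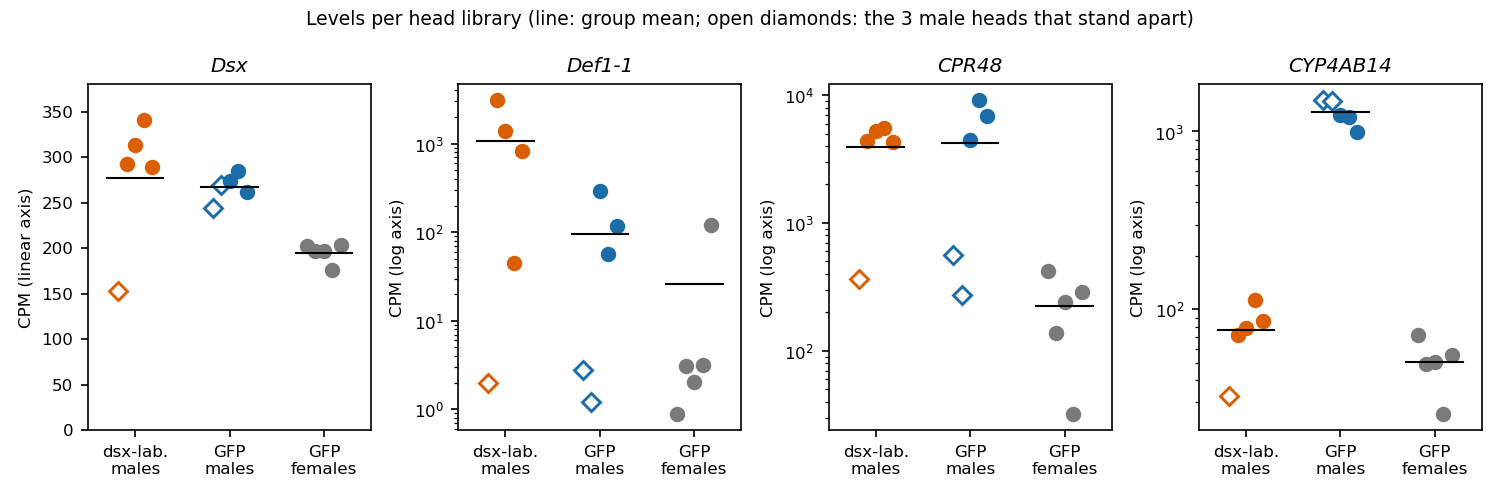
Levels (CPM, vertical axis, linear for Dsx and logarithmic for the other 3 genes) in each head library of dsx-labelled males, GFP males and GFP females, with the group mean as a line and the 3 male heads that stand apart as open diamonds. Dsx overlaps between the male groups, Def1-1 and CPR48 follow the 3 libraries, and CYP4AB14 separates the male groups in every library.

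The targeted gene did not separate the male groups. Dsx stood at 152.7, 292.1, 313.6, 340.7 and 289 CPM in the dsx-labelled males, against 244.5, 269.4, 273.5, 285.1 and 261.7 CPM in the GFP males. Replicate 1 was the lowest of all male heads, and the other 4 dsx-labelled libraries lay above every GFP male. The log2 fold change, dsx-labelled minus GFP, was 0.06 (SE 0.14, adjusted p 0.899, edgeR quasi-likelihood test with Benjamini-Hochberg adjustment; two-sided exact permutation p 0.984, where 5 against 5 libraries allow no p below 0.00794). Without the 3 libraries that stand apart it was 0.18 (adjusted p 0.0832), and without dsx-labelled replicate 1 alone it was 0.21 (adjusted p 0.0391). GFP females had 202.7, 197.2, 196.4, 176.2 and 203.1 CPM. Since no lower level was measured in heads taken at this time, the groups are called by their label, dsx-labelled, and the directions given below are those of the label. Tra was not called between the male groups either, with 31.7 to 66.2 CPM in dsx-labelled and 36.3 to 61.5 CPM in GFP males (log2 fold change 0.09, adjusted p 0.887), below the 324 to 472 CPM of GFP females. Fruitless (Fru), a transcription factor gene known from Drosophila for male courtship circuits, had 52.2 to 118 CPM in dsx-labelled and 69.1 to 119 CPM in GFP males (log2 fold change 0.01, adjusted p 0.994), below the 180 to 245 CPM of GFP females.

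Of 12136 genes, 1083 (8.92%) differed between the dsx-labelled and the GFP male heads at an adjusted p below 0.05, 482 higher (3.97%) and 601 lower (4.95%). The median size of the change among the called genes was 0.617 on the log2 scale. Changes of at least 2-fold were called for 308 genes (2.54%), 189 higher and 119 lower, and changes of at least 4-fold for 72 higher and 29 lower genes. The largest changes were thus more often increases, while among the 2287 genes above 100 CPM in the higher male group 98 were called higher and 205 lower. Over all genes the libraries of the male groups did not overlap for 756 (6.23%), and 644 genes were both called and without overlap, 274 higher and 370 lower. Protein-coding genes made up 1035 of the calls, 9.17% of those tested, and 20 of 488 long non-coding RNAs (4.1%) were called. Fitting the 10 male heads alone, with a spread that comes from males only, gave 459 calls, 204 higher and 255 lower. Of these, 450 were among the 1083 (41.6% of the main calls), and 633 of the main calls were not called there. The adjusted p-values given below for named genes come from the joint fit unless another is named. Named genes that lose their call in the fit of the male heads alone are not marked one by one. On the leading component of variation within groups the female heads lay between -0.0789 and 0.0941, closer together than the male heads. Leaving out the 3 libraries that stand apart gave 1995, of which 929 were among the 1083, and the more frequent direction turned, with 1047 higher and 948 lower. Calls of at least 2-fold numbered 198 in the fit of the 10 male heads alone.

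**Figure D2:**
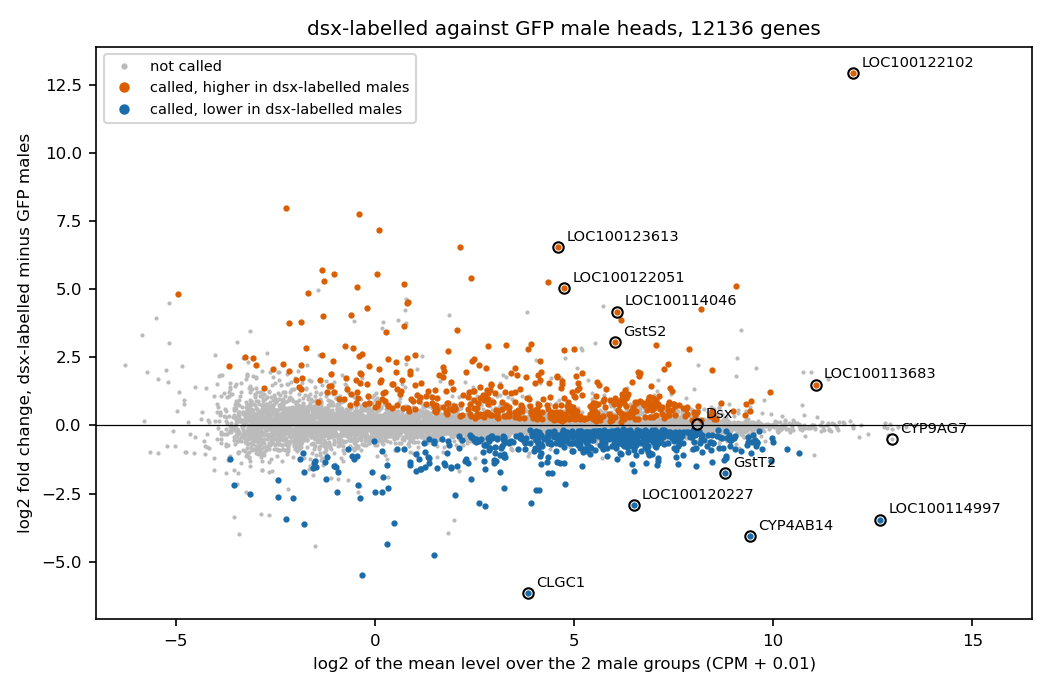
Log2 fold change between dsx-labelled and GFP male heads (vertical axis) against the log2 mean level over both male groups (CPM + 0.01, horizontal axis) for 12136 genes, with called genes coloured by direction. LOC100122102 at 12.93 lies far above all other genes, and CLGC1, CYP4AB14 and LOC100114997 are the abundant genes with the largest decreases, while Dsx and CYP9AG7 were not called.

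The 10 largest increases were picked among called genes of at least 10 CPM in the higher male group whose male groups did not overlap. They included genes that came near the female level, stayed below it or went beyond it. LOC100122102 and the other genes named by a LOC number carry no description in the sources used here, so no role is given for them. LOC100122102 stood at 13920, 5668, 5444, 8485 and 7699 CPM in dsx-labelled males, against 1.41, 2.8, 0.373, 0.293 and 0.313 CPM in GFP males (log2 fold change 12.93, SE 0.71, adjusted p 3.51e-10). GFP females had 10940 to 16740 CPM, a range that the dsx-labelled males entered with replicate 1 alone. Replicates 2 to 5 of the dsx-labelled males lay below every GFP female. The difference between dsx-labelled males and GFP females was -0.70 and was not called (adjusted p 0.244), which does not show equal levels. LOC100122051 rose to 33.7, 57.1, 56.6, 57.5 and 54.8 CPM in dsx-labelled males, against 1.07, 1.3, 2.21, 1.43 and 1.92 CPM in GFP males (log2 fold change 5.04, SE 0.19, adjusted p 1.39e-12). The GFP female level of LOC100122051, 53.9 to 66.3 CPM, was close, with a difference of -0.22 (adjusted p 0.313). LOC100114046 was raised to an intermediate level, with 158, 87, 108, 166 and 115 CPM in dsx-labelled males, against 6.23, 4.92, 9.22, 7.66 and 7.02 CPM in GFP males and 284 to 480 CPM in GFP females. The log2 difference of the male groups was 4.18 (SE 0.23, adjusted p 3.49e-10), and dsx-labelled males stayed 1.61 log2 units below GFP females (adjusted p 9.57e-06).

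Other genes rose in dsx-labelled males to levels that GFP females did not have. LOC100123613 had 12.8, 34.9, 59.4, 70.5 and 63.2 CPM in dsx-labelled males, against 0.317 to 0.799 CPM in GFP males and 1.82 to 7.90 CPM in GFP females (log2 difference of the male groups 6.53, SE 0.53, adjusted p 1.11e-07). GstS2, a sigma-class glutathione transferase that couples glutathione to reactive compounds, had 132, 108, 115, 111 and 111 CPM in dsx-labelled males, against 15.2, 15.4, 13.8, 13.4 and 11.9 CPM in GFP males and 18.1 to 20.6 CPM in GFP females. Its libraries were the tightest of the leading genes, at a change of 3.05 on the log2 scale (SE 0.08, adjusted p 4.04e-15), and it exceeded GFP females by 2.57 log2 units (adjusted p 8.27e-15). LOC100113789 showed the same order, with 204 to 331 CPM in dsx-labelled males, 22.1 to 43.6 CPM in GFP males and 27.6 to 40.9 CPM in GFP females (log2 fold change 2.95, SE 0.18). LOC116415802 went further from the female level: it had 23.0 to 30.4 CPM in dsx-labelled males, 3.10 to 3.67 CPM in GFP males and at most 0.0647 CPM in GFP females (log2 difference of the male groups 2.99, SE 0.22, adjusted p 2.99e-08). LOC100114690 (log2 fold change 2.96) rose above both GFP groups as well, at 12.4 to 24.2 CPM in dsx-labelled males, against 1.95 to 2.43 CPM in GFP males and 7.17 to 10.8 CPM in GFP females. Among the genes it overlaps in the annotation, LOC100114730 was called higher as well (log2 fold change 0.48), so their counts may not be independent.

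A pair of the leading increases was uneven among libraries. LOC100120544 had 90.8, 2639, 1278, 250 and 978 CPM in dsx-labelled males, against 9.8, 1.5, 53.6, 31.6 and 55.3 CPM in GFP males (log2 fold change 5.11, SE 1.30, adjusted p 0.0158). In both groups it was low in the 3 libraries that stand apart, and without them its log2 fold change was 4.79 (adjusted p 0.0292). LOC100116651 had 46.6, 164, 163, 131 and 169 CPM in dsx-labelled males, against 18.7, 5.43, 5.80, 9.10 and 7.49 CPM in GFP males and 4.23 to 36.9 CPM in GFP females (log2 fold change 3.86, SE 0.69, adjusted p 0.000938). Its groups did not overlap, as the choice of the leading genes required, although replicate 1 was the lowest dsx-labelled library and also the highest GFP one.

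Among the 10 largest decreases, picked by the same rule, several genes that were male-biased in the GFP heads came down to or near the female level. CLGC1 had 0.149, 0.494, 0.531, 0.403 and 0.391 CPM in dsx-labelled males, against 22.8, 21.0, 29.8, 36.8 and 29.6 CPM in GFP males and 0.336 to 1.58 CPM in GFP females (log2 difference of the male groups -6.15, SE 0.38, adjusted p 2.06e-09). It fell slightly below the female level, with a difference of -0.97 (adjusted p 0.0493). CYP4AB14, a cytochrome P450, had 32.8, 72.2, 78.4, 112 and 86.5 CPM in dsx-labelled males, against 1499, 1487, 1235, 1199 and 996 CPM in GFP males (log2 fold change -4.07, SE 0.32, adjusted p 6.33e-08). GFP females had 25.7 to 71.5 CPM, and dsx-labelled males did not differ from them at the threshold (0.60, adjusted p 0.124). Replicates 2 to 5 of the dsx-labelled males nevertheless lay above every GFP female. CYP4AB14 overlaps LOC100122714 in the annotation, which was called lower as well (log2 fold change -0.61, adjusted p 0.000138), so their counts may not be independent. LOC100120227 fell to 18.0 to 24.5 CPM in dsx-labelled males, against 93.7 to 253 CPM in GFP males and 10.5 to 20.1 CPM in GFP females (log2 fold change -2.92, SE 0.28). LOC100122414 fell to 1.14 to 2.12 CPM in dsx-labelled males, against 6.21 to 16.6 CPM in GFP males and 0.954 to 1.86 CPM in GFP females (log2 fold change -2.84, SE 0.29), and LOC100123352 to 1.81 to 5.91 CPM, against 11.2 to 24.1 CPM in GFP males and 3.41 to 5.03 CPM in GFP females (log2 fold change -2.28, SE 0.29).

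Further decreases, except that of LOC100119490, left the gene well above the female level. LOC100114997 was among the most abundant male genes, with 1938, 800, 723, 1018 and 1023 CPM in dsx-labelled males, against 20250, 19790, 8692, 6226 and 5194 CPM in GFP males (log2 fold change -3.45, SE 0.39, adjusted p 6.11e-06). GFP females had 0.375 to 0.811 CPM, so dsx-labelled males remained 10.71 log2 units above them (adjusted p 1.65e-11). The 3 libraries that stand apart were the highest of their groups, and without them the fold change was -2.91 (adjusted p 7.72e-08). LOC100123567 had 1.92 to 7.20 CPM in dsx-labelled males, 19.2 to 36.7 CPM in GFP males and 0.88 to 1.14 CPM in GFP females (log2 fold change -2.38, SE 0.27), and LOC100117765 had 2.80 to 7.49, 11.0 to 38.0 and 0.983 to 2.23 CPM in the same 3 groups (log2 fold change -2.35, SE 0.32). Both remained above the female level, by 2.42 (adjusted p 4e-06) and 1.80 log2 units (adjusted p 0.000368). The calls of LOC100119490 and LOC100113790 depended on single libraries. LOC100119490 (log2 fold change -2.86, adjusted p 0.0234) had 1.89 to 4.50 CPM in dsx-labelled males and 8.96 to 41.0 CPM in GFP males. GFP females had 0.584 to 18.3 CPM, so the dsx-labelled males lay within the female range. Its adjusted p was 0.0542 without dsx-labelled replicate 5. LOC100113790 (-2.13, adjusted p 0.0198) had 6.12 to 14.4 CPM in dsx-labelled males, 28.0 to 78.1 CPM in GFP males and 0.283 to 3.33 CPM in GFP females. Its adjusted p was 0.0551 without GFP male replicate 1, 0.0595 without dsx-labelled replicate 3 and 0.0959 without the 3 libraries that stand apart.

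**Figure D3:**
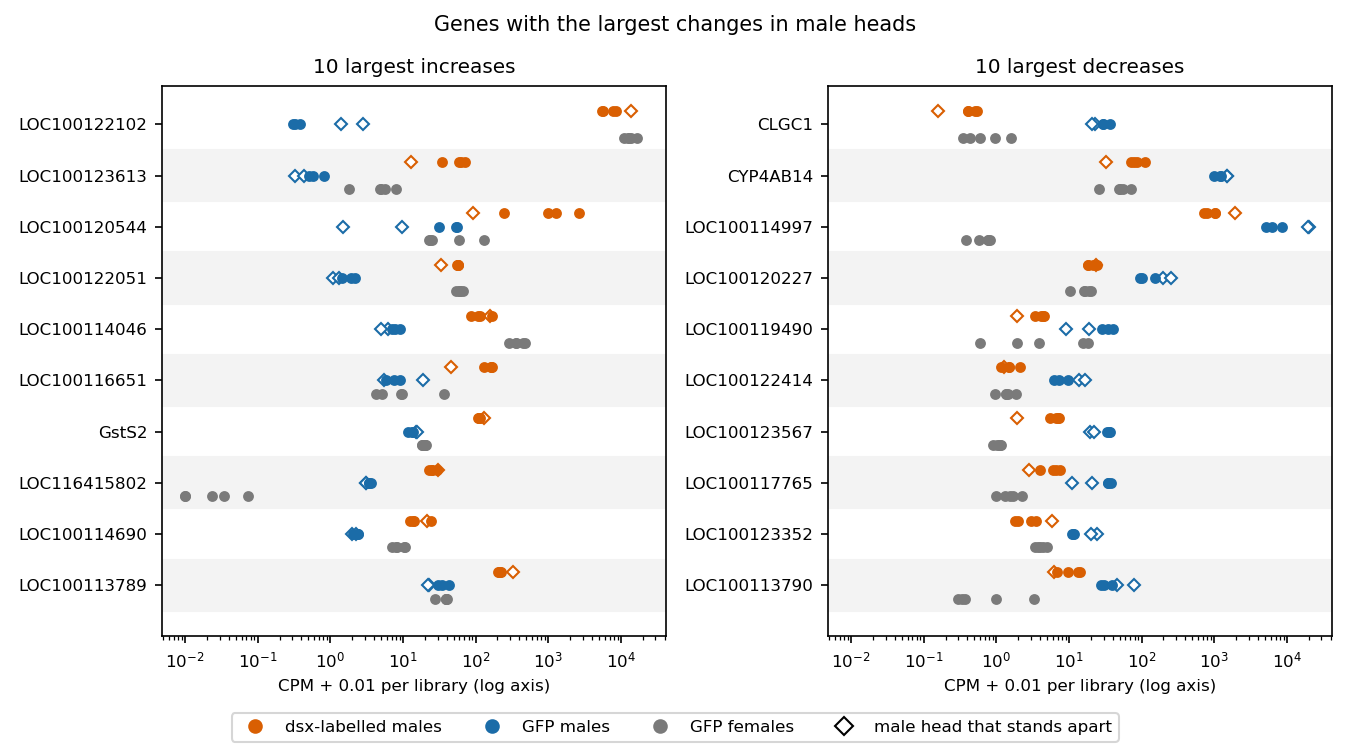
Levels in each library (CPM + 0.01, logarithmic horizontal axis) of the 10 genes with the largest increases and the 10 with the largest decreases, with dsx-labelled males above GFP males above GFP females in each row and the 3 male heads that stand apart as open diamonds. The male groups do not overlap in these 20 genes because the rule that chose them required it (6.23% of all genes do not overlap). The dsx-labelled points lie near, between or beyond the female points depending on the gene.

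Enzymes that modify small molecules changed in both directions. Gene families and marker lists were gathered by gene symbol, so any member filed under a LOC number is left out. The shares given here and below cover the listed genes only. Cytochrome P450s, haem enzymes that oxidise hormones, pheromones and foreign compounds, had 8 of 43 tested members called (18.6%, against 8.92% of all genes), 2 higher and 6 lower, with a median log2 fold change over the list of -0.07 against 0.01 over all genes. Beside CYP4AB14, CYP6BD2 fell to 98.4 to 115 CPM in dsx-labelled males, against 183 to 403 CPM in GFP males and 93.6 to 127 CPM in GFP females (log2 fold change -1.41, SE 0.17, adjusted p 2.15e-05). CYP6CK8 fell as well, to 78.2 to 84.0 CPM in dsx-labelled males, against 112 to 179 CPM in GFP males, and stayed far above the 0.155 to 0.605 CPM of GFP females (log2 fold change -0.85, SE 0.17, adjusted p 0.00239). CYP6AQ9, CYP4AB8 and CYP9AG3 fell by 0.95, 0.90 and 0.77 on the log2 scale, and their male groups overlapped. CYP9AG3 was lost without the 3 libraries that stand apart (adjusted p 0.0901). CYP4AB12 rose to 30.8 to 43.8 CPM in dsx-labelled males, against 6.68 to 19.3 CPM in GFP males and 10.5 to 13.9 CPM in GFP females (log2 fold change 1.52, SE 0.22, adjusted p 0.000116), and CYP6AS30 rose by 1.08 (SE 0.17). Without the 3 libraries, a fit that called 1995 of all genes, 13 P450 genes were called, 7 higher and 6 lower, including 7 of the 8. CYP9AG7, the most abundant of the listed P450 genes in male heads, was not called (log2 fold change -0.50, adjusted p 0.593). It had 13090, 5517, 4772, 5051 and 5111 CPM in dsx-labelled males, against 14630, 12860, 7816, 6455 and 5541 CPM in GFP males. Its 3 highest values were those of the libraries that stand apart.

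Glutathione transferases had 5 of 16 members called (31.2%, against 8.92% of all genes), GstS2 higher and 4 lower. The same 5 were called without the 3 libraries, a fit that called 1995 of all genes. The theta-class genes GstT1, GstT2 and GstT3 lie next to each other in the reference annotation and fell together. GstT1 and GstT2 overlap there. GstT2 had 171, 201, 194, 236 and 216 CPM in dsx-labelled males, against 853, 804, 694, 563 and 506 CPM in GFP males and 147 to 160 CPM in GFP females (log2 fold change -1.75, SE 0.12, adjusted p 1.33e-08). GstT3 fell by 1.49 (SE 0.18) and GstT1 by 0.78 (SE 0.09), and neither differed from GFP females at the threshold, with differences of 0.19 (adjusted p 0.455) and 0.08 (adjusted p 0.518). Reads from such neighbouring copies can be shared in the counting, so their separate values carry that uncertainty. The microsomal transferase GST-mic1 fell to 229 to 400 CPM in dsx-labelled males, against 388 to 902 CPM in GFP males and 211 to 242 CPM in GFP females (log2 fold change -1.14, SE 0.20, adjusted p 0.000686). Of 13 carboxylesterases, which cleave esters, 4 were called (30.8%, against 8.92% of all genes). CCE-A3 rose to 131 to 225 CPM in dsx-labelled males, against 58.0 to 108 CPM in GFP males and 119 to 146 CPM in GFP females (log2 fold change 1.04, SE 0.15), and CCE-E11 rose by 0.61 (SE 0.13). CCE-A5 fell to 57.3 to 80.9 CPM in dsx-labelled males, against 99.7 to 131 CPM in GFP males and 57.8 to 62.8 CPM in GFP females (log2 fold change -0.82, SE 0.09, adjusted p 6.43e-06). CCE-A6 fell by 0.23 and was lost without the 3 libraries (adjusted p 0.289).

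Chemoreceptor genes were called in both directions. Odorant receptors, the ion channel subunits of antennal olfactory neurons, had 8 of 195 tested members called (4.1%), 5 higher and 3 lower, out of 214 in the table, and their median log2 fold change was 0.02. Of all genes 8.92% were called, but the share depended on level, at 3.18% of genes below 1 CPM and 8.1% of genes between 1 and 10 CPM in the higher male group. Their summed level was 486 to 763 CPM in dsx-labelled males, 531 to 742 CPM in GFP males and 581 to 823 CPM in GFP females. Or173 rose to 6.78, 3.83, 4.24, 6.25 and 5.26 CPM in dsx-labelled males, against 1.15, 1.33, 1.24, 1.4 and 1.48 CPM in GFP males (log2 fold change 2.00, SE 0.20, adjusted p 1.9e-06). It exceeded the 1.45 to 2.85 CPM of GFP females, by 1.27 log2 units (adjusted p 8.98e-05). Or275 and Or276, which overlap in the annotation so that their counts may not be independent, rose by 1.25 (SE 0.16) and 1.03 (SE 0.14), and Or96 by 1.48 (SE 0.21). Or96 overlaps LOC107981071, which was called higher as well (log2 fold change 2.345), so the same limit applies. The dsx-labelled males did not differ from GFP females at the threshold in Or275 (-0.14, adjusted p 0.54), Or276 (0.10, adjusted p 0.601) or Or96 (-0.03, adjusted p 0.925). Or275 had 5.91 to 10.7 CPM in dsx-labelled males, 2.51 to 4.12 CPM in GFP males and 7.28 to 9.60 CPM in GFP females. Or289 rose by 0.74 (SE 0.16). Or296, the most abundant of the called receptors, fell to 17.5 to 21.9 CPM in dsx-labelled males, against 24.4 to 36.1 CPM in GFP males and 3.82 to 4.5 CPM in GFP females (log2 fold change -0.67, SE 0.10, adjusted p 0.000267). Or162 fell by 0.44 and was lost in 5 of 20 fits that each leave out 1 library. Or222 was near the detection limit, at 0.0147 to 0.0597 CPM in dsx-labelled males and 0.0711 to 0.132 CPM in GFP males, and its call was lost without the 3 libraries (adjusted p 0.185). Of 28 gustatory receptors tested, Gr5 was called (3.57%), lower by 0.39, and lost without the 3 libraries (adjusted p 0.0861). Gr5 overlaps the P450 gene CYP9AG3, which was called lower as well, so their counts may not be independent. Neither of 2 odorant-binding protein genes tested was called.

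Genes of the cuticle, secretion and defence were called in both directions, beside 8.92% of all genes. Of 34 cuticle protein genes tested, 4 were called (11.8%). CPR16 fell to 311 to 425 CPM in dsx-labelled males, against 429 to 519 CPM in GFP males and 286 to 365 CPM in GFP females (log2 fold change -0.45, SE 0.09, adjusted p 0.00312), and CPR18 fell by 0.85 (SE 0.17). CPR8 rose at low level, to 0.225 to 0.551 CPM in dsx-labelled males, against 0.0711 to 0.158 CPM in GFP males (log2 fold change 1.65, SE 0.35), while CPR47 rose by 0.42 and was lost without the 3 libraries (adjusted p 0.156). The royal jelly protein-like genes Mrjpl2 and Mrjpl4 were the 2 of 15 yellow and royal jelly family members called (13.3%), both higher, by 1.21 (SE 0.37) and 1.05 (SE 0.27). Both calls rest on uneven libraries: Mrjpl4 had 3.90, 12.4, 5.80, 3.96 and 7.70 CPM in dsx-labelled males, against 2.16 to 4.35 CPM in GFP males, and an adjusted p of 0.0566 without dsx-labelled replicate 2, and Mrjpl2 was lost in 17 of 20 fits that leave out 1 library. Serine proteases and their inactive homologues had 6 of 38 members called (15.8%), 4 higher and 2 lower. SP128 rose to 6.90 to 11.2 CPM in dsx-labelled males, against 3.46 to 4.88 CPM in GFP males and 18.2 to 25.6 CPM in GFP females (log2 fold change 1.12, SE 0.15, adjusted p 4.06e-05), which left it between the GFP sexes. SP27 rose by 0.76 (SE 0.14), away from the female level of 8.38 to 12.1 CPM, at 18.4 to 34.4 CPM in dsx-labelled males, against 12.3 to 16.9 CPM in GFP males. The calls of SP122, SP133, SP110 and SPH42 were each lost in 4 or more of the 20 fits that leave out 1 library, and that of SPH42 also without the 3 libraries (adjusted p 0.105).

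Of 7 immune genes, 1 was called (14.3%, beside 8.92% of all genes). This was Gnbp1-2, which belongs to the receptors of fungal and bacterial cell walls, higher by 0.44 (SE 0.13, adjusted p 0.0339, lost in 6 of the 20 fits). The defensin Def1-1 showed how large the spread within a group can be: it had 1.98, 3092, 1379, 45.4 and 828.9 CPM in dsx-labelled males, against 2.79, 1.20, 295, 56.1 and 117.5 CPM in GFP males, and its log2 fold change of 3.50 had an SE of 2.02 (adjusted p 0.379). Akhr, the receptor of the adipokinetic hormone that mobilises fat and sugar reserves, was the 1 of 7 peptide hormone genes called (14.3%, beside 8.92% of all genes), lower by 0.52 (SE 0.14). It had 67.2 and 70 CPM in the GFP males that stand apart and 39.9 to 42.8 CPM in the other 3, against 30.5 to 42.8 CPM in dsx-labelled males, and the call was lost without the 3 libraries (adjusted p 0.152). Of 64 subunits of the respiratory chain and ATP synthase, 2 were called (3.12%, beside 8.92% of all genes). Uqcr10 of complex III was higher by 0.54 and Atp5e of the ATP synthase by 0.40, and neither was called without the 3 libraries (adjusted p 0.0975 and 0.224). Acox3, a peroxisomal oxidase of fatty acyl chains, rose to 220, 143, 160, 171 and 160 CPM in dsx-labelled males, against 128, 136, 104, 113 and 88.0 CPM in GFP males and 50.3 to 52.5 CPM in GFP females (log2 fold change 0.59, SE 0.11, adjusted p 0.00116). This increase led away from the female level. Acox3 overlaps LOC100114454 and LOC103316660 in the annotation, both called higher (log2 fold changes 1.84 and 1.31), so these counts may not be independent.

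**Figure D4:**
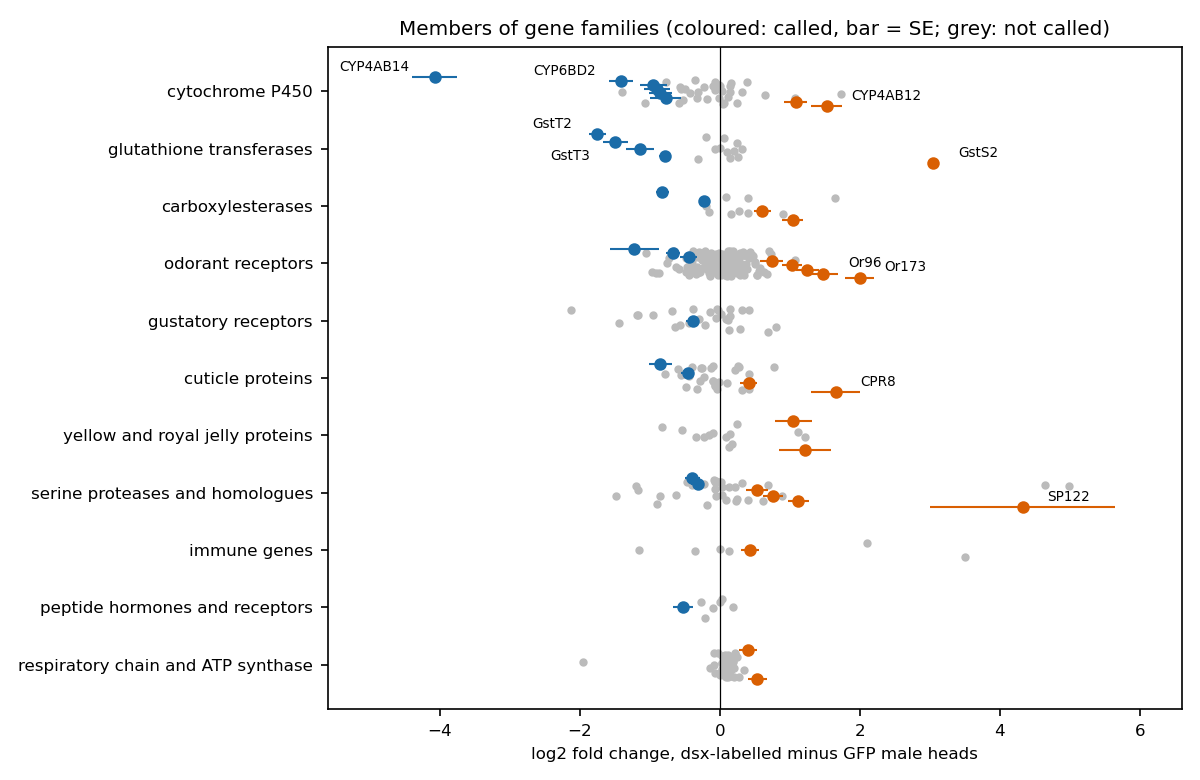
Log2 fold change between dsx-labelled and GFP male heads (horizontal axis) of the tested members of 11 gene families (rows), with called members in orange (higher in dsx-labelled males) or blue (lower) with their SE and the other members in grey. Most receptors and respiratory subunits lie near 0, and CYP4AB14 at -4.07, SP122 at 4.32 and GstS2 at 3.05 are the called members farthest from it.

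Marker genes of the tissues a head can hold did not differ at the threshold between the male groups in the fit of all 20 heads. None of 16 neurotransmitter-gated channels, 3 genes of neuronal excitability and release, the opsin Lop1, 3 muscle genes, 3 fat body hexamerins, 2 phenoloxidases of blood cells and 2 germ line genes was called, beside 8.92% of all genes. Without the 3 libraries that stand apart, 1 of the channels, the acetylcholine receptor subunit nAChRb1, was called lower (-0.15, adjusted p 0.0214, against -0.17 and 0.0931 with all heads). The hexamerin Hex70b was then called higher (0.52, adjusted p 0.0431, against 0.11 and 0.861 with all heads). The libraries of the male groups did not overlap for 6.23% of all genes, Lop1 among them. Lop1 stood at 3311 to 4257 CPM in dsx-labelled males and 4285 to 7099 CPM in GFP males (log2 fold change -0.41, adjusted p 0.0899, and -0.11 without the 3 libraries). Those of oskar, a germ line gene, did not overlap either, at 4.05 to 5.44 CPM in dsx-labelled males and 2.68 to 3.91 CPM in GFP males (0.44, adjusted p 0.0769). These genes were named after their values were seen, and their part in the results was not tested. The hexamerins, storage proteins of the fat body, summed to 8.24 to 12.4 CPM in dsx-labelled males, 8.36 to 11.9 CPM in GFP males and 16.4 to 24.9 CPM in GFP females. The muscle genes Tm1, Tm2 and Zasp66 summed to 998 to 2190 CPM in dsx-labelled males and 962 to 2380 CPM in GFP males, with the lowest values of both groups in the 3 libraries that stand apart. In whole heads, fewer cells of a type and less RNA per cell cannot be told apart.

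Called genes with the same direction also lay side by side. In the order of tested genes along the reference annotation, 19 runs of 3 or more consecutive called genes held 64 genes, 10 runs of raised and 9 of lowered genes. The longest run had 9 raised genes, LOC100116769, LOC107982173, LOC100113683, LOC100116734, LOC100116616, LOC100677898, LOC100678168, LOC107982174 and LOC100680165, which were picked out because they were called, so their counts below are a description. In the reference annotation LOC100116616 overlaps LOC100116734, LOC100677898, LOC100678168 and LOC107982174, and LOC107982173 overlaps LOC100116769, so the counts of these genes may not be independent. Their log2 fold changes ran between 1.26 and 3.75, the libraries of the male groups did not overlap for 8 of them (6.23% of all genes), and all 9 were called without the 3 libraries that stand apart. LOC100113683, by far the most abundant, had 4219, 2881, 2867, 2862 and 2986 CPM in dsx-labelled males, against 2137, 1622, 616, 644 and 591 CPM in GFP males and 3980 to 4691 CPM in GFP females (log2 fold change 1.495, SE 0.286, adjusted p 0.00179). In both male groups the libraries that stand apart were the highest, and without them the fold change was 2.23 (adjusted p 2.71e-12). LOC100116616 had 5.02 to 15.4 CPM in dsx-labelled males, 0.421 to 1.09 CPM in GFP males and 11.1 to 17.6 CPM in GFP females (log2 fold change 3.51, SE 0.31). LOC100677898 had 16.0 to 39.8, 1.25 to 15.8 and 25.8 to 43.6 CPM in the same groups (log2 fold change 1.79, SE 0.52, adjusted p 0.0354). Without dsx-labelled replicate 1 its adjusted p was 0.0837, and it exceeded the threshold without dsx-labelled replicate 3 and without each of GFP male replicates 3, 4 and 5 as well. In dsx-labelled male thoraces, where 26.9% of all genes were called, all 9 were called higher, and in abdomens, where 39.3% were called, 5 of the 7 tested were called higher.

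In female heads the same label went with almost no change, 5 of 12136 genes (0.0412%). Dsx was not among them, at 183.9 to 212.4 CPM in dsx-labelled females against 176.2 to 203.1 CPM in GFP females. No lower level of the targeted gene was thus measured in female heads either. LOC100679926 and LOC100678165 were higher with the dsx label in both sexes: LOC100679926 stood at 18.9 to 37.8 CPM in dsx-labelled and 5.68 to 11.0 CPM in GFP males, and at 9.995 to 21.98 CPM in dsx-labelled and 2.16 to 6.47 CPM in GFP females (log2 fold changes 1.97 and 1.78). LOC100116702 and LOC100120693 moved in opposite directions, higher in dsx-labelled males by 0.65 and 0.52 and lower in dsx-labelled females by 1.04 and 0.73 on the log2 scale. LOC100116702 had 220.2 to 291.4 CPM in dsx-labelled males, against 151 to 179.5 CPM in GFP males, and 94.6 to 115.8 CPM in dsx-labelled females, against 167.1 to 283.7 CPM in GFP females. LOC100680344 was called in females alone (1.38, against -0.28 in males, adjusted p 0.466). The difference between the male and the female effect of the label was itself significant for 498 genes (4.1%), 228 with a more positive effect in males and 270 with a more negative one, and for 1693 genes without the 3 libraries that stand apart, 896 more positive and 797 more negative. The 5 genes with the lowest p of this test were LOC100122051 (difference 5.22), GstS2 (2.80), LOC100122102 (12.83), LOC100120686 (-1.19) and LOC100679481 (2.24). LOC100120686 had 55.3 to 64.8 CPM in dsx-labelled males, against 121 to 145 CPM in GFP males, and LOC100679481 had 10.1 to 12.8 CPM in dsx-labelled males, against 2.41 to 2.88 CPM in GFP males and 10.4 to 11.9 CPM in GFP females.

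Over all genes, dsx-labelled male heads differed from GFP female heads for 3451 genes (28.4%), and GFP male heads differed from GFP female heads for 4104 genes (33.8%). These comparisons and that of the male groups share libraries, so their counts are given side by side only.

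In male thoraces 3171 of 11782 genes (26.9%) and in male abdomens 4857 of 12356 genes (39.3%) were called between dsx-labelled and GFP males. The thoraces and abdomens may come from the same wasps as the heads. Of 1052 head calls tested in thoraces, 450 were called there in the same direction, 42.8% of the head calls and 14.3% of the thorax calls, and 25 in the opposite direction, where 27.3% of the genes tested in both were called in thoraces. Of 1060 head calls tested in abdomens, 625 were called there in the same direction, 59% of the head calls and 13.5% of the abdomen calls, and 94 in the opposite direction, where 40.4% of the genes tested in both were called in abdomens. Without the 3 heads that stand apart, the shared calls numbered 940 with thoraces and 1057 with abdomens, and with the male heads fitted alone 219 and 268. In all 3 body parts, 348 genes were called in the same direction, 192 higher and 156 lower.

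The genes with the strongest evidence over the 3 body parts held several of the leading head genes. LOC100122102 had log2 fold changes of 12.93 in heads, 12.48 in thoraces and 11.61 in abdomens, and averaged 9057 ± 2751 CPM in dsx-labelled thoraces and 1.57 ± 1.82 CPM in GFP thoraces (SD, n = 5 each). LOC100114046 had 4.18, 4.10 and 4.70 in the same order. For LOC100118005 (2.35, 2.70 and 5.01), LOC107980724 (1.06, 3.31 and 6.81) and LOC100113667 (0.78, 3.44 and 4.37) the value in heads was the lowest of the 3, a difference that was not tested. CYP4AB14 was lower in each part, by -4.07 in heads, -5.69 in thoraces and -8.05 in abdomens, where it averaged 8.89 ± 5.84 CPM in dsx-labelled and 2364 ± 196 CPM in GFP males (SD, n = 5 each). GstT2 had -1.75, -1.66 and -2.996, and LOC100117805, LOC100121828 and LOC100117477 had head values of -0.98, -1.16 and -1.48 with decreases in both other parts. LOC100121828 overlaps LOC100121846 in the annotation, which was called lower in heads as well (log2 fold change -0.52), so their counts may not be independent. Other leading head genes did not keep their direction or their call. CLGC1, at -6.15 in heads and -2.83 in thoraces, was higher in dsx-labelled abdomens, with 66.4 ± 4.94 CPM in dsx-labelled and 31.5 ± 2.77 CPM in GFP males (SD, n = 5 each; log2 fold change 1.07, adjusted p 1.19e-08). LOC100122051 was called neither in thoraces (0.95, adjusted p 0.111) nor in abdomens (-0.81, adjusted p 0.243), and LOC100123567 had -0.28 (adjusted p 0.177) and -0.58 (adjusted p 0.0888) there.

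**Figure D5:**
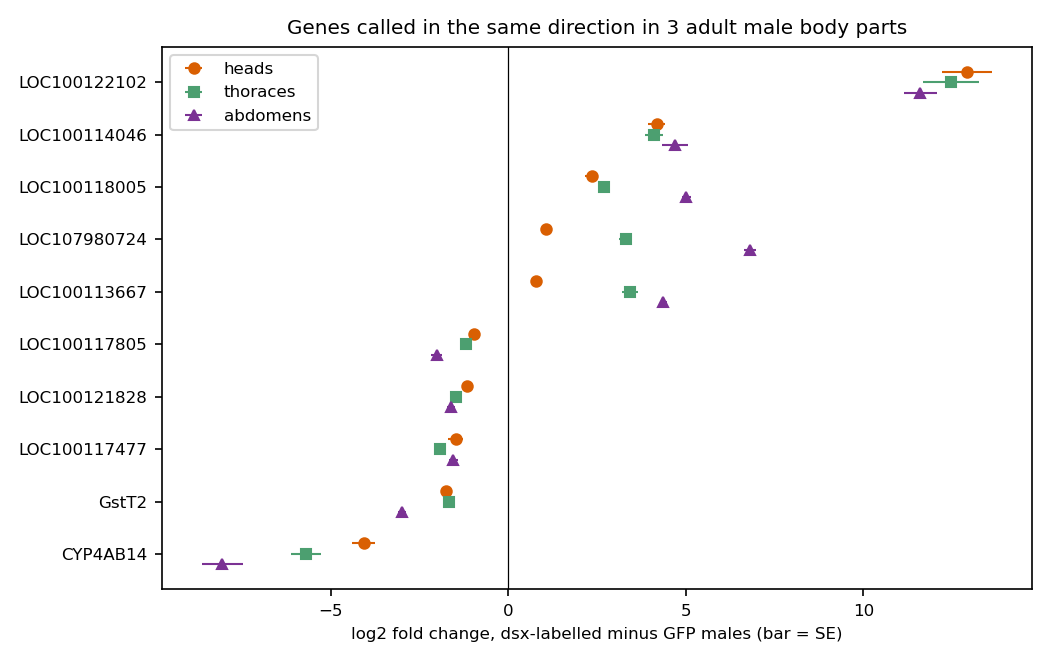
Log2 fold change between dsx-labelled and GFP males with its SE (horizontal axis) in heads, thoraces and abdomens for the 10 genes named for the same direction in the 3 adult body parts. LOC100122102 lies above 11 in each part, and CYP4AB14 lies lowest in each part, at -4.07 in heads.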

How the data were processed

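Raw counts per gene were deposited by the authors as 1 table of 140 libraries. HISAT2 2.0.5 and HTSeq 0.6.1 are named in the submitters' processing notes, without their role; genome build and strand setting: not given in the sources used here. Per the labels' protocols, libraries were paired-end sequenced from total RNA of dissected adults. The counts of the 20 adult head libraries (67106414 to 96616030 each) were fitted together with edgeR 4.0.16 (R 4.3.3): filterByExpr with a minimum count of 10, TMM, 1 mean per group, no block, quasi-likelihood F test, Benjamini-Hochberg adjustment over the 12136 genes of each contrast, call at an adjusted p below 0.05. The SE is the log2 fold change divided by the root of F. Thoraces and abdomens were fitted separately. Sums over marker lists are of CPM without TMM. Dsx, Tra and Fru were also tested by exact permutation of log2(CPM + 0.01).

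Named genes are Dsx, Tra and Fru, the 10 largest increases and 10 largest decreases with at least 10 CPM in the higher male group and no overlap of libraries, up to 3 called members a gene list by p, up to 5 genes a direction over 3 body parts, and 5 of the interaction; further called list members, the run of 9 neighbours, Acox3, CYP9AG7, Def1-1, CPR48 and the 5 genes called in females were added after their values were seen. The comparison and the lists were chosen with earlier results of these data known, and the lists were rebuilt on symbols because the annotation table (assembly Nvit_psr_1.1, 14756 of 15471 symbols matched) holds no descriptions. Every pair of replicates differed by more than sampling noise. On simulated counts for this comparison with 12136 genes, 47.7% of 1.5-fold and 74% of 2-fold changes were recovered. Alternatives were DESeq2 1.42.0, RLE factors, no filter, the compared groups alone, the replicate block, the leading component as covariate, the 3 libraries left out, and each library left out.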

Additional observations from a re-analysis of the deposited data

Results flagged for a closer look

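Single libraries lay far from the other 4 of their group in 24 of the 180 groups of 5 male heads examined over the 90 named genes. The cutoff would give about 1 in 20 for independent, normally distributed values. The 90 genes share the same 10 libraries and were mostly chosen for their values, so the count is a description. In 19 of the 24 groups the library was replicate 1 of the dsx-labelled males, one of the 3 that stand apart. That library was the highest of its group for SP122 (4.62 CPM), LOC100116616 (15.4 CPM), GstS2 (132 CPM), LOC100113789 (331 CPM), LOC107982173 (9.58 CPM), LOC100677898 (39.8 CPM), LOC100113683 (4220 CPM), LOC100116769 (1.33 CPM), LOC100680165 (14.8 CPM), CCE-A3 (225 CPM), CYP9AG7 (13100 CPM), CYP9AG3 (110 CPM), CYP4AB8 (171 CPM), LOC100117477 (30.9 CPM) and LOC100114997 (1940 CPM). It was the lowest of its group for LOC100122051 (33.7 CPM), Or289 (2.43 CPM), Dsx (153 CPM) and CPR48 (362 CPM). Among the remaining outlying libraries, replicate 2 of the GFP males was the highest for SP122 (0.327 CPM), replicate 1 of the GFP males was the highest for LOC100116651 (18.7 CPM), replicate 2 of the dsx-labelled males was the lowest for LOC107982174 (2.77 CPM), replicate 4 of the dsx-labelled males was the highest for CYP6AS30 (84.9 CPM) and replicate 3 of the GFP males was the highest for LOC100120686 (145 CPM).

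The effect of the dsx label differed between male and female heads for 55 of the 90 named genes (edgeR interaction term, adjusted p below 0.05 over all genes), beside 498 of all 12136 genes (4.1%). Most of the named genes were chosen for their change between the male groups, and 5 by the p of this interaction itself, so the count is a description. The difference, male minus female effect on the log2 scale, was positive for LOC100122102 (12.83), LOC100122051 (5.22), LOC100123613 (4.72), LOC100114046 (4.01), LOC100116734 (3.94), LOC100116616 (3.80), LOC116415802 (3.68), LOC100114690 (3.32), CPR8 (3.07), GstS2 (2.80), LOC100113789 (2.80), LOC100678168 (2.78), LOC100679481 (2.24), LOC100118005 (2.21), LOC107982174 (1.81), Or173 (1.69), LOC100116702 (1.69), LOC100113683 (1.58), LOC100680165 (1.44), CYP4AB12 (1.32), LOC100120693 (1.24), SP128 (1.21), Or275 (1.15), Or96 (1.12), LOC107980724 (1.06), Uqcr10 (1.03), CYP6AS30 (1.02), SP133 (0.88), Or276 (0.80), Atp5e (0.80) and LOC100113667 (0.74). It was negative for CLGC1 (-5.08), CYP4AB14 (-4.28), LOC100120227 (-3.58), LOC100114997 (-3.37), LOC100122414 (-2.83), LOC100123567 (-2.76), LOC100117765 (-2.54), LOC100123352 (-2), GstT2 (-1.80), CYP6BD2 (-1.74), LOC100680344 (-1.67), LOC100117477 (-1.65), GstT3 (-1.28), CYP6CK8 (-1.28), LOC100117805 (-1.19), LOC100120686 (-1.19), CYP4AB8 (-1.17), CYP6AQ9 (-1.06), GST-mic1 (-1.05), LOC100121828 (-1.01), CPR18 (-0.91), Or296 (-0.87), GstT1 (-0.86) and CCE-A5 (-0.80). Uqcr10, Atp5e and SP133 appear in the first group although their calls between the male groups were among those lost in some of the alternative fits.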

How the results depend on the processing

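The 1083 calls of the male comparison, where tested, kept their sign in every alternative except 1 gene without dsx-labelled replicate 3, but their number depended on the fit. It was 1354 with DESeq2, 1078 with RLE factors, 1019 without a filter, 459 with the compared groups alone, 2440 with the leading component as covariate, 1995 without the 3 male heads that stand apart (1047 higher and 948 lower, against 482 and 601), and 818 to 1343 with each library left out. Calls of at least 2-fold numbered 198 with the compared groups alone and 264 to 355 with each library left out. Genes whose effect differed between the sexes numbered 756 with DESeq2, 1678 with the covariate, 1693 without the 3 heads and 365 to 729 with each library left out, against 498. The comparison of dsx-labelled males with GFP females gave 5893 with the covariate, 5370 without the 3 heads and 2711 to 3689 with each library left out, and that of the GFP sexes gave 6290 with the covariate and 3455 to 5044 with each library left out. Head calls shared with thoraces numbered 219 with the compared groups alone, 921 with the covariate, 940 without the 3 heads and 378 to 522 with each library left out, and those shared with abdomens 268, 1271, 1057 and 494 to 739. The log2 fold change of Dsx ran between -0.0271 and 0.211 with each library left out. Of 82 named and called genes, 56 kept their call in all alternatives, 72 without the 3 heads, 81 with DESeq2 and 82 with the covariate, and 18 lost it when some single library was left out. The covariate was computed within groups from these same libraries. It takes up spread within groups, so calls could hardly be lost, and its counts are no check of the calls. With the replicate number as a block, 1124 genes were called and 76 of the 82 named genes kept their call. Same-numbered male heads correlated at 0.641, -0.285, 0.312, 0.317 and 0.299, and 3 of 5 correlated best with their own number. These values do not settle whether the numbers pair the libraries. The labels do not say so either, and the main fit has no block. At the depth of these heads, simulated 1.5-fold changes were recovered in 47.7% of cases, which limits the smaller changes. The alternatives that add the covariate or leave out 3 libraries, and those for the body parts, were chosen after results of these data were known.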
